A study of Mus musculus with 10 samples.

Results

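Cathepsins are the main proteases of the lysosome, and expression of 10 of their genes was compared in embryonic mouse forebrains with and without an active form of the transcription factor FoxO3. The genes were Ctsa, Ctsb, Ctsc, Ctsd, Ctsf, Ctsh, Ctsk, Ctsl, Ctss and Ctsz, out of 19938 genes measured on the arrays. They were chosen by name, with earlier results of these data known. Each was read from the brightest probe set, by its mean across the 10 arrays, of those that the platform's gene table assigns to exactly 1 symbol. Each of the 10 had 1 such probe set, so this step left out no other probe set of these genes.

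The dtg group held 5 forebrains of transgenic embryos, in which the CaMKIIa promoter, described by the submitters as specific to the forebrain, drives a constitutively active FoxO3 allele. The stg group held 5 forebrains of control embryos. All embryos were of stage E12.5 on a mixed CD1/NMRI background and came from 2 dams, and the labels neither spell out dtg and stg nor say whether the control embryos carry a transgene. Part of each forebrain was hybridised to 1 array, after most of the thalamus had been cut away. The labels do not assign embryos to dams, so litter and group cannot be told apart. The p-values below measure the spread between these embryos.

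Cathepsins are made as inactive precursors, carried to the lysosome largely by mannose 6-phosphate receptors, and activated there at acid pH. Most are cysteine proteases, whereas Ctsd encodes an aspartic and Ctsa a serine enzyme. Neurons depend on them to clear protein: in humans, loss of CTSD or CTSF causes forms of neuronal ceroid lipofuscinosis, a storage disease of the brain. Other members, such as Ctss, are best known from macrophages and microglia.

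The promoter windows of the 2 cathepsins with the smallest p-values in the comparison below, Ctsf and Ctsd, are shown with a window of Ctsa for comparison, because they differ in short elements linked to FoxO and to lysosomal control. Each runs from 250 bases before to 50 after a RefSeq start, in the direction of the gene (RefSeq, GRCm38.p6). Ctsf lies at chr19:4854915-4855214 on the + strand, Ctsd at chr7:142387778-142388077 on the - strand and the second listed start of Ctsa at chr2:164833523-164833822 on the + strand. Capitals mark every match, on either strand, to GTAAACA (the FOXO element), GTAAATA (a variant of it), CACGTG (the E-box) or TCACGTGA (the E-box with the flanks of the element through which TFEB acts on lysosomal genes, which always holds a CACGTG).
Ctsf: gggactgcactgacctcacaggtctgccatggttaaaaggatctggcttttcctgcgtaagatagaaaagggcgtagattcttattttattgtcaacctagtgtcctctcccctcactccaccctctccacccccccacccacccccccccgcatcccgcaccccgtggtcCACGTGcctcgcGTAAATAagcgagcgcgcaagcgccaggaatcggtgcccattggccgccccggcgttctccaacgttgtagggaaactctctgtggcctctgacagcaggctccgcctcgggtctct
Ctsd: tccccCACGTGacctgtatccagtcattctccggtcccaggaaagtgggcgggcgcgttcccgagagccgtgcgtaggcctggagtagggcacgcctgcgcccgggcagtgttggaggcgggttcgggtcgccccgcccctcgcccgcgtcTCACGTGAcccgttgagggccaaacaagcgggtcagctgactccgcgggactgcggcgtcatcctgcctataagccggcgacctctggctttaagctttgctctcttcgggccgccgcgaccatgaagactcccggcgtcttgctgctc
Ctsa: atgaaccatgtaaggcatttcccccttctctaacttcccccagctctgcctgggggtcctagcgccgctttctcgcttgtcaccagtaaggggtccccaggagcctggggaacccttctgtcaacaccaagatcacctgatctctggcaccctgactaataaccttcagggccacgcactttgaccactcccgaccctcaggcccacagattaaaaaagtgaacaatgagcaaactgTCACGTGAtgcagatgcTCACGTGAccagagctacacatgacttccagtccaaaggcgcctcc

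The Ctsf window held GTAAATA at 67 bases and CACGTG at 79 bases before the start. Ctsd had CACGTG at 245 and 98 bases before the start, the nearer of them within TCACGTGA. The Ctsa window shown had TCACGTGA once on each side of its start, whereas the window of the first listed Ctsa start held no match. RefSeq windows were available for 8 of the 10 genes, 9 windows in all. GTAAACA was in 0 of these 9, against 3.01% of the 19177 windows of measured genes, and GTAAATA was in the Ctsf window alone, against 2.43%. CACGTG was in 4 of the 9 windows (Ctsa, Ctsd, Ctsf and Ctsl), against 8.24%, and TCACGTGA in 2 (Ctsa and Ctsd), against 1.32%. The motifs were chosen after the windows had been seen, so these shares are a description and no test of enrichment. The matches describe letters in a short window and were not tested for binding.

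Among the 10 cathepsins 1, Ctsf, rose in dtg forebrains. Ctsf encodes a cysteine protease with an unusually long propeptide. Its log2 intensity in dtg embryos 1 to 5 was 6.57, 6.31, 6.42, 6.33 and 6.49, against 5.99, 5.97, 6.06, 6.13 and 5.99 in stg embryos 1 to 5. The groups did not overlap, and the lowest dtg embryo lay above the highest stg embryo. Mean Ctsf was 6.42 ± 0.11 in dtg and 6.03 ± 0.065 in stg forebrains (SD, n = 5 each), a log2 difference of 0.39 ± 0.062 (SE) or 1.31-fold (limma adjusted p = 0.0425 over all genes; exact permutation p = 0.00794, two-sided, the smallest this design allows). Over all genes 13 rose at this threshold, which is 0.0652% of those tested (0.105% in either direction), and all dtg embryos lay above all stg embryos for 0.978%. The permutation p follows from the lack of overlap, is the same for every such gene, and is not adjusted. When embryos were left out in turn, Ctsf missed the threshold in 9 of 10 fits and passed only without stg embryo 4, with adjusted p-values from 0.0321 to 0.141, while its difference stayed between 0.36 and 0.42.

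The aspartic protease gene Ctsd had the next smallest p-value but did not pass. In dtg embryos 1 to 5 Ctsd read 8.79, 8.77, 8.73, 8.67 and 8.79, against 8.43, 8.30, 8.46, 8.43 and 8.75 in stg embryos. The dtg embryos lay close together and above stg embryos 1 to 4, and stg embryo 5 lay within the dtg range. The log2 difference of Ctsd was 0.28 ± 0.076 (SE, limma adjusted p = 0.324). Leaving out stg embryo 5, the only control within the dtg range, must remove the overlap and raise the difference. Without stg embryo 5 the Ctsd difference was 0.34 ± 0.058 (adjusted p = 0.0458), and Ctsd passed. In that fit Ctsf read 0.38 ± 0.068 with an adjusted p of 0.0559, and Ctsd was then the 1 cathepsin among the 0.186% of genes that passed.

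Ctss, a cysteine protease that trims the invariant chain of MHC class II in antigen-presenting cells, followed in order of p. Its values in dtg embryos 1 to 5 were 6.38, 6.51, 6.49, 6.42 and 6.35, against 5.98, 6.28, 6.19, 6.26 and 6.48 in stg embryos. Again stg embryo 5 alone reached into the dtg range, and stg embryo 1 was the lowest of all. The Ctss difference was 0.19 ± 0.083 on the log2 scale (SE), which did not pass (limma adjusted p = 0.627). Without stg embryo 5 it was 0.26 ± 0.072 (adjusted p = 0.326). That the remaining groups did not overlap again follows from leaving out this control.

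**Figure D1:**
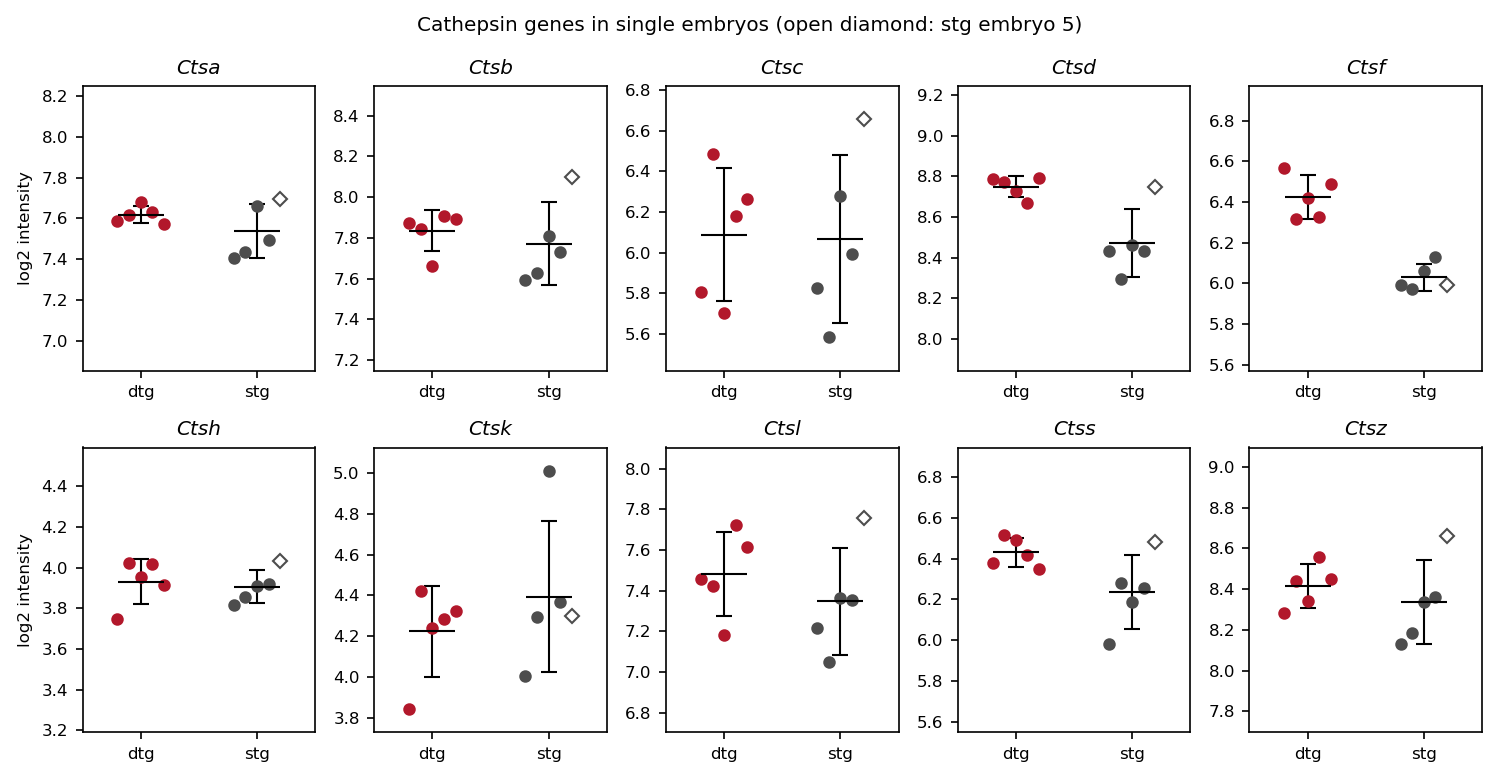
Log2 intensity (vertical axes, each spanning the same 1.4 log2 units) of the 10 cathepsin genes in 5 dtg and 5 stg forebrains. Points are embryos 1 to 5 from left to right, the open diamond is stg embryo 5, and bars give the mean and SD. For Ctsf every dtg embryo lies above every stg embryo, and for 8 genes stg embryo 5 is the highest control.

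None of the other 7 cathepsins passed, and in each the embryos of the groups overlapped. Among the cysteine endopeptidases, Ctsl differed by 0.13, with a 95% interval in limma from -0.15 to 0.41, and Ctsb, which also acts as a carboxypeptidase, by 0.064 (-0.14 to 0.27). Ctsz, a carboxypeptidase, differed by 0.080 (-0.13 to 0.29), and Ctsh, an aminopeptidase, by 0.025 (-0.12 to 0.17). Ctsc, which activates serine proteases of immune granules, differed by 0.021 with a wide interval from -0.41 to 0.45. Ctsa, the serine carboxypeptidase that protects beta-galactosidase and neuraminidase in the lysosome, differed by 0.080 (-0.063 to 0.22). These intervals leave room for differences of the size seen in Ctsd for Ctsl, Ctsc and Ctsz, and on the lower side for Ctsc.

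Ctsk, the collagen-degrading protease of osteoclasts, was the 1 member with a lower mean in dtg forebrains, at -0.17 (95% interval -0.53 to 0.19, limma adjusted p = 0.868). Its values ran from 3.84 to 4.42 in dtg embryos, with a median of 4.29, and from 4.003 to 5.01 in stg embryos, with a median of 4.30. The difference was -0.018 without stg embryo 3, the highest of all 10, and -0.077 without dtg embryo 1, the lowest. Ctsk and Ctsh both had mean log2 intensities below the 40th percentile of all genes, and the table holds no detection call to set them against.

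Of the 10 members 9 had a higher mean in dtg forebrains, against 48.1% of all genes, and the median difference was 0.080, against -0.0038 over all genes. At an unadjusted limma p below 0.05 there were 3 members, Ctsf, Ctsd and Ctss, all higher in dtg, against 4.1% of all genes. No member was lower at that level, where 3.48% of all genes were. These counts describe genes that were grouped with earlier results known and were given no test as a list.

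**Figure D2:**
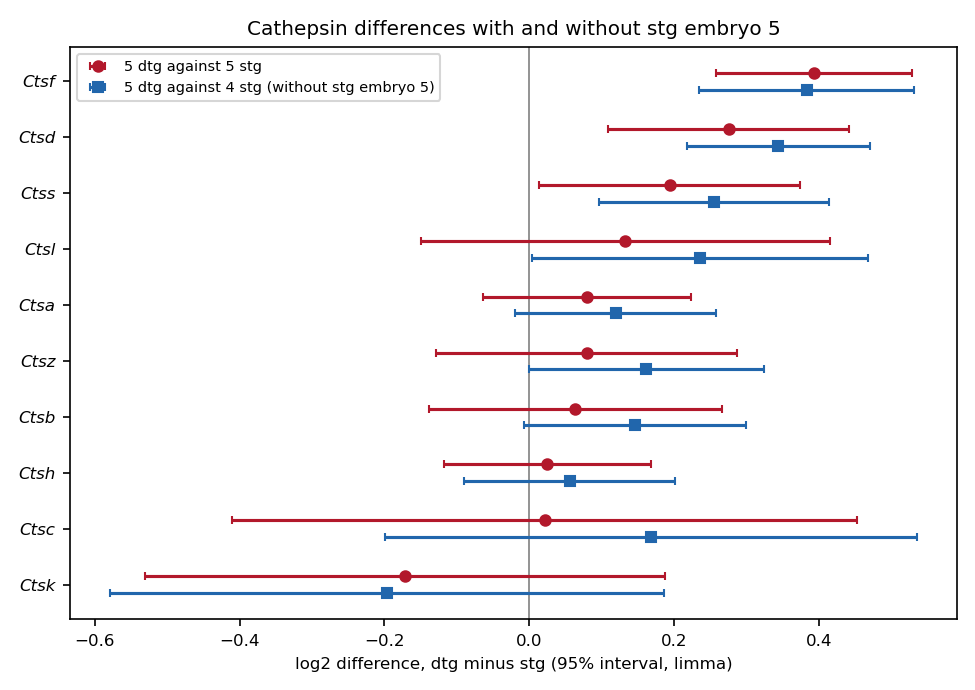
Log2 difference (horizontal axis, dtg minus stg) of each cathepsin with its 95% interval from limma, over all 10 embryos (circles) and without stg embryo 5 (squares). Ctsf reads 0.39 and 0.38 in the 2 fits, while Ctsd reads 0.28 and 0.34.

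The embryos differed in their cathepsin levels in a way that crossed the groups. Stg embryo 5 was above the other 4 controls for 8 of the 10 genes and was the highest of all 10 embryos for 6 (Ctsa, Ctsb, Ctsc, Ctsh, Ctsl and Ctsz). It exceeded the mean of the other controls by 0.73 for Ctsc, 0.51 for Ctsl, 0.41 for Ctsb, 0.41 for Ctsz and 0.34 for Ctsd. Ctsf and Ctsk were the exceptions, at -0.049 and -0.12. Stg embryos 1 and 2 were at the other end, each the lowest of all 10 embryos for 4 genes. Ctsc and Ctsk varied most within groups, with pooled SDs of 0.37 and 0.31, and Ctsf least, at 0.089. After each gene was centred on its own mean, Ctsb and Ctsz followed each other most closely over the 10 arrays, with a root mean square difference of 0.072 on the log2 scale. Without stg embryo 5, again 9 members had higher means in dtg forebrains (47.9% of all genes did). Their median difference over the 10 members was then 0.16, against -0.0045 over all genes. Leaving out this embryo must raise the differences of the 8 genes for which it was the highest control. In that comparison 3 members, Ctsd, Ctsf and Ctss, had all dtg above all stg embryos, against 1.54% of all genes. For Ctsd and Ctss this follows from leaving out the only control that reached into the dtg range.

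Markers of other cells the sample could hold were read beside these values. Stg embryo 5 stood apart on the whole array: its correlation with the other arrays averaged 0.985, against 0.992 to 0.993 for each of the others. Its mean over 8 mesenchyme markers was 8.50, against 6.68 to 7.50 in dtg embryos and 6.34 to 7.40 in the other stg embryos. Its mean over 11 neuron markers was 7.59, the lowest of all. All 11 neuron markers had higher means in dtg forebrains (48.1% of all genes did), with a median difference of 0.34 (0.084 without stg embryo 5). The 5 measured erythroid markers all had lower means, with a median of -0.26 (-0.035 without it). None of these neuron and erythroid markers passed, and none had an unadjusted limma p below 0.05. With the neuron mean as a covariate Ctsf read 0.36 (adjusted p = 0.0341), and with the erythroid mean 0.38 (adjusted p = 0.0284). Macrophage and microglia markers, 17 genes such as Cx3cr1, Csf1r and C1qa, averaged 4.77 to 4.90 in dtg and 4.65 to 4.94 in stg embryos. Stg embryos 5 and 3 had the highest macrophage values and stg embryo 1 the lowest. The summed linear intensity of these markers ran from 525 to 607 in dtg and from 482 to 612 in stg embryos. Of the 17, 15 had higher means in dtg forebrains, against 48.1% of all genes. Of these markers 0 passed (limma, 0 also at an unadjusted p below 0.05), with a median difference of 0.059 (0.098 without stg embryo 5). In tissue of mixed cells a change in cell number and a change in RNA per cell cannot be told apart. With the macrophage mean as a covariate Ctsf read 0.40 (limma adjusted p = 0.0204), Ctsd 0.23 (adjusted p = 0.199) and the median of the 10 members 0.017. With the mesenchyme mean as a covariate Ctsf read 0.39 and Ctsd 0.28.

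A list of 11 genes of the thalamus, hypothalamus and midbrain, which lie at or beyond the dissection border, had 9 members with higher and 2 with lower means in dtg forebrains, with a median difference of 0.79. Olig3 differed by 2.26, Tcf7l2 by 1.74 and Dbx1 by 1.11, whereas the midbrain gene En1 differed by -0.00088. Among hypothalamic genes, Sim1 differed by 1.29 (limma unadjusted p = 0.0425), Otp by 0.16 and Nkx2-1 by -0.25. The mean of the list ran from 6.56 to 7.10 in dtg and from 5.37 to 6.72 in stg embryos. Of the 11 genes 7 had an unadjusted limma p below 0.05, all higher in dtg, while none passed. Over all genes 48.1% had higher means in dtg, and 4.1% were higher at that p. With the mean of this list as a covariate Ctsf read 0.28 (limma adjusted p = 0.956) and Ctsd 0.40 (adjusted p = 0.908), and 0 genes of the whole table passed. Only stg embryo 4 reached into the dtg range of this mean. The covariate thus largely followed the group, and the fit cannot separate them well. The 6 measured forebrain genes averaged 7.54 to 7.81 in dtg and 6.94 to 7.97 in stg embryos, with 2 higher and 4 lower means in dtg. Otx2 differed by 0.87 (adjusted p = 0.247 in limma), with all dtg above all stg embryos, Lhx2 by -0.28 and Emx2 by -0.20.

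**Figure D3:**
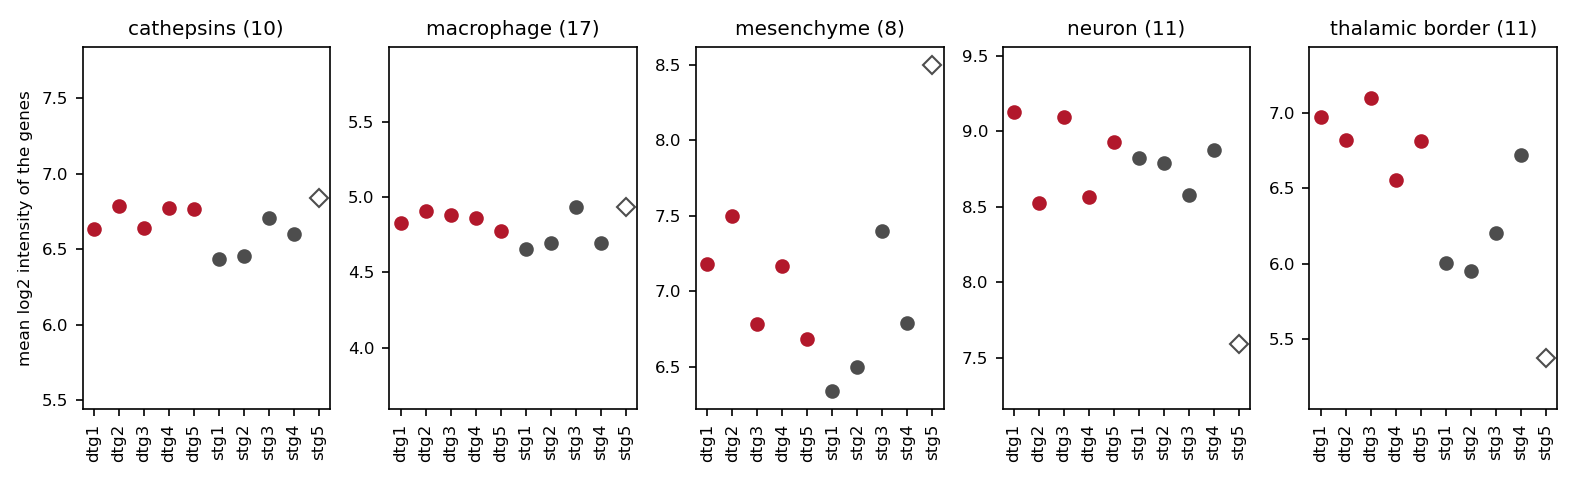
Mean log2 intensity (vertical axes, each spanning 2.4 log2 units) of the cathepsins and of 4 marker lists in each embryo, with the number of genes in brackets. The open diamond is stg embryo 5, which is highest for cathepsins (6.84) and mesenchyme (8.50) and lowest for neuron markers (7.59).

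Genes that work with the cathepsins did not pass. Of 11 measured sorting and activation genes 7 were higher (48.1% of all genes were) and 4 lower in dtg forebrains. At an unadjusted limma p below 0.05 there were 2, both higher in dtg, against 4.1% of all genes. These were Lgmn, the asparaginyl endopeptidase that helps process cathepsin precursors, and Sort1, a sorting receptor for lysosomal proteins. Lgmn read 8.09 ± 0.099 in dtg and 7.73 ± 0.30 in stg forebrains (SD, n = 5 each), a difference of 0.35 (adjusted p = 0.515 in limma), and Sort1 differed by 0.18 (adjusted p = 0.596). Psap, the saposin precursor that cathepsins cleave, differed by 0.11 (adjusted p = 0.678), and all dtg embryos lay above all stg embryos for it. Gnptab, a subunit of the enzyme that adds the mannose 6-phosphate signal, differed by -0.089.

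Cathepsin inhibitors showed little difference. Of 6 genes 4 were higher and 2 lower, none passed and none had an unadjusted limma p below 0.05, with a median of 0.014. Cst3, the secreted cystatin C, read 9.63 ± 0.052 in dtg and 9.60 ± 0.064 in stg forebrains (SD, n = 5 each). Cstb, the cytosolic cystatin B, differed by -0.046, Cst6 by 0.098 and Ctla2b by -0.015.

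Cathepsins outside the 10 were also measured. Of 10 such genes 6 were higher (48.1% of all genes were) and 4 lower, and none passed or had an unadjusted limma p below 0.05. Ctso, a cysteine protease of broad expression, had the smallest p and a difference of 0.22 ± 0.12 (SE, adjusted p = 0.740). The aspartic protease gene Ctse differed by -0.15 and Ctsw, known from cytotoxic lymphocytes, by 0.069. The mouse genes Cts6 and Cts7, which belong to a cluster expressed in placenta, differed by 0.056 and 0.096 at mean log2 levels between 3.10 and 3.32. Cts3 and Ctsm share their probe sets and were not analysed here.

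Lysosomal hydrolases other than cathepsins were mostly higher by small amounts. Of 23 measured genes 19 were higher (48.1% of all genes were) and 4 lower in dtg forebrains. Their median was 0.024 (0.070 without stg embryo 5), and none passed. Fuca1, the lysosomal fucosidase, had the only unadjusted limma p below 0.05, with a difference of 0.18 (adjusted p = 0.573). Over all genes 4.1% were higher at that level. Lipa, the acid lipase, differed by 0.31 (adjusted p = 0.675), Npc2, a cholesterol carrier, by 0.093 and Arsb, a sulfatase, by 0.080.

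Of 14 genes of the lysosomal membrane and its proton pump 12 were higher (48.1% of all genes were) and 2 lower. Their median was 0.094 (0.071 without stg embryo 5), and none passed. The smallest p belonged to Slc17a5, the sialic acid exporter, at 0.21 ± 0.062 (SE, limma adjusted p = 0.366), for which all dtg embryos lay above all stg embryos. Npc1, the membrane partner of Npc2, differed by 0.18 (adjusted p = 0.497). The proton pump subunit genes Atp6v1a and Atp6v1b2 differed by 0.12 and 0.15 (adjusted p = 0.736 and 0.750).

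Transcription factors that control lysosomal genes did not pass either. Tfeb differed by 0.0065, Tfe3 by 0.11 and Mitf by 0.0043, while Tfec, a member of the same family, differed by -0.17 (limma unadjusted p = 0.0178, adjusted p = 0.537). Zkscan3, a repressor of autophagy and lysosome genes, differed by -0.091.

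**Figure D4:**
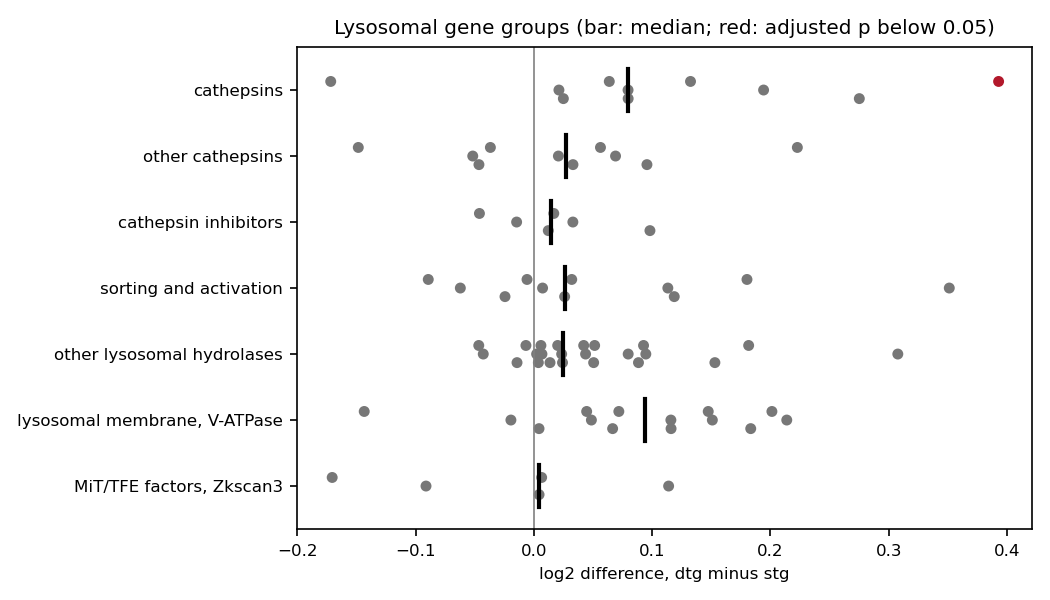
Log2 difference (horizontal axis, dtg minus stg) of each measured gene in the 10 cathepsins and in 6 related lists (points, spread vertically for legibility). Bars give medians, and Ctsf at 0.39 is the 1 gene coloured as past the threshold.

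The 5 genes whose values followed Ctsf most closely over the 10 arrays, by the root mean square difference of log2 values after centring each gene on its mean, were 2510009E07Rik (0.078), Ypel3 (0.081), Ncald (0.084), Plcb4 (0.084) and Braf (0.086). None is a cathepsin or a member of the lysosomal lists. Their own dtg minus stg differences were 0.34, 0.25, 0.30, 0.30 and 0.28, with adjusted limma p-values from 0.0846 to 0.163. The measure includes the difference between the groups, so it favours genes that also separate them, and all 5 had all dtg above all stg embryos. Among the members Ctsd was closest to Ctsf, at 0.14.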

How the data were processed

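RNA of 10 mouse embryo forebrains was hybridised to 1 Affymetrix Mouse Gene ST array each, with biotin-labelled sense target, as the labels' protocols state. The deposited table holds log2 intensities of 35556 probe sets. Per the submitters' processing notes, the authors used Affymetrix Expression Console. The log2 unit was read from the values. The version, algorithm and normalization method are not given in the sources used here, and the array medians lay between 5.36 and 5.39. No further normalization was applied.

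The platform's gene table names 1 symbol for 21789 probe sets, several for 1621 and none for 12146, and no symbol changed when set against RefSeq gene identifiers (GRCm38.p6). Each of 19938 genes was represented by its probe set of highest mean. Groups came from the sample titles. dtg was compared with stg using limma 3.58.1 in R 4.3.3 (group only, empirical Bayes, two-sided p-values with Benjamini-Hochberg adjustment across the 19938 genes, threshold 0.05). At that threshold 21 genes passed (0.105%). The exact permutation test ran over 252 assignments. The procedure was tested on simulated data. Precision is limited by the number of arrays.

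The members, lists, tests and alternatives were chosen with earlier results of these data known, and the promoter motifs after the windows had been seen. Named genes were all 10 cathepsins, with every embryo's value at an unadjusted p below 0.05, and the 5 genes most like Ctsf. In each further list of cathepsin or lysosomal genes, up to 4 genes of the smallest p were named. Genes named from the cell type and regional marker lists are examples and were not picked by this rule. Ctse and Mitf were named after their values were seen. Some listed genes were not analysed here. Lists were described by counts and medians only. The alternatives left out each embryo, used the replicate block, array weights, trend or robust variances, median centring, quantile normalization, a filter on dim genes, the mean of all probe sets, all probe sets, marker lists as covariates and a threshold of 0.1. Radial glia, endothelial and erythroid covariates were added after seeing the data. Replicate numbers were not treated as pairs: the correlation of same-numbered deviations from the group means was above 0.1 for 1 of 5 numbers.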

Additional observations from a re-analysis of the deposited data

Results flagged for a closer look

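Dtg embryo 3 had a Ctsb log2 intensity of 7.66, below the other dtg embryos, the nearest of which read 7.84. The gap was 0.743 of the range of the 5 dtg embryos, above Dixon's 95% critical value of 0.71. This was the 1 such value in 20 groups of 5 (10 cathepsins in each of 2 groups), and chance flags about 1 in 20.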

How the results depend on the processing

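The Ctsf difference kept its sign under all 27 alternatives (0.28 to 0.42) and its call under 12. Trend or robust variances, the replicate block and the threshold of 0.1 left the difference at 0.39 by design. So did the filter on dim genes and, with 1 Ctsf probe set, both probe set options. A call at 0.05 also holds at 0.1 by definition. The call was lost with the replicate block (0.39, limma adjusted p = 0.201), trend variances (adjusted p = 0.0529), median centring (0.0534), all probe sets (0.112), the border covariate (0.956), the radial glia covariate (0.0855) and in 9 of 10 fits without 1 embryo. Without stg embryo 5 Ctsd was called in its place (0.34, adjusted p = 0.0458). Accordingly 0 cathepsins passed with the replicate block, trend variances, median centring, all probe sets, and the border or radial glia covariates, and 0 to 1 when single embryos were left out. Genes past the threshold numbered 21 in the comparison as reported, 2 with the replicate block, 39 with array weights, 9 with all probe sets, 55 at a threshold of 0.1, and 7 (without dtg embryo 1) to 58 (without stg embryo 4) over fits that left out 1 embryo. With covariates it was 166 (macrophage), 104 (mesenchyme), 0 (border), 92 (neuron), 14 (radial glia), 74 (endothelial) and 85 (erythroid). The border mean largely followed the group, so the fit with it cannot separate border and group well. The replicate block cannot change a difference or its sign, because each replicate number occurs once in each group. In 0 of 5 cases did a dtg embryo's deviations correlate best with the stg embryo of its own number.

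The median over the 10 cathepsins was 0.28 with the border covariate, 0.22 with the neuron covariate and 0.037 to 0.16 over fits that left out 1 embryo. Small differences turned sign. Ctsc ran from -0.10 to 0.17 over fits that left out 1 embryo and read -0.13 with the macrophage and -0.031 with the radial glia covariate. With the macrophage covariate Ctsb read -0.00090 and Ctsh -0.0098. The cause of these shifts was not tested. The filter on dim genes removed Ctsh and Ctsk, which have no value there.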
